A study of Mus musculus with 6 samples.

Results

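The mitochondrial ribosomal proteins were followed through the RNA of mouse hearts on Affymetrix arrays. The members are the genes whose annotated symbol starts with Mrpl (large subunit) or Mrps (small subunit) and a number, read from probe sets that carry 1 symbol. They came to 76 of the 18193 genes with 1 symbol, measured by 156 probe sets, and the probe set of highest mean over the 6 arrays stood for each gene. All 76 passed the filter on dim probe sets. The first group held hearts of apoE-deficient mice on the B6 background given rosiglitazone, at 30 mg/kg per day, over the 2 months that followed an age of 6 months, and the labels call these hearts failing. The second held hearts of untreated apoE-deficient mice on the same background, and the third hearts of untreated wild-type B6 mice. All mice were 8 months old and ate the same chow with 7% fat and 0.15% cholesterol, and each group has 2 arrays. ApoE is an apolipoprotein through which cells take up lipid particles from the blood, and rosiglitazone is a glucose-lowering drug and an agonist of PPAR gamma, a nuclear receptor. Drug and heart failure fall in the same group and cannot be told apart. Whether the arrays of a group stand for different animals is not stated in the labels, and the p-values then cover only the spread between arrays, which may be technical.

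Mitochondria keep a small genome of their own, and the few proteins it encodes, all subunits of the respiratory chain and the ATP synthase, are made by ribosomes inside the organelle. The RNA of these ribosomes is encoded in mitochondrial DNA, whereas every one of their proteins is encoded in the nucleus, made in the cytosol and imported. The small subunit reads the messenger RNA and the large subunit joins the amino acids. Many of the proteins descend from bacterial ribosomal proteins, and the others are found only in mitochondria. The heart is dense in mitochondria, and in humans mutations in several of these genes cause cardiomyopathy.

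A level below is the log2 of the quantile-normalized signal plus a pseudocount, and a difference is one of levels ± SE from limma (n = 2 arrays per group), with Benjamini-Hochberg adjusted p-values over all 27022 probe sets tested. A member rose or fell where its adjusted p was under 0.05. The deposited signals were not scaled between arrays: the 2%-trimmed means of the treated arrays (341 and 263) exceeded those of the untreated apoE-deficient (126 and 130) and B6 arrays (175 and 149), so brightness is confounded with group. Apoe itself had levels of 6.20 and 6.25 in treated and 5.24 and 6.29 in untreated apoE-deficient hearts, against 11.91 and 11.86 in B6 hearts, so the deficient genotype is seen in both. Ventricular cardiomyocyte markers (8 of 8 above the filter) were present on every array and set the tissue as heart. Markers of several other cell types differed between the groups. The summed signal of 7 airway markers was 14663 and 15492 in treated hearts, against 134 and 120 in untreated apoE-deficient hearts and 98.7 and 132 in B6 hearts. White adipocyte markers summed to 32411 and 31830 in treated hearts, against 14952 and 14965 in untreated apoE-deficient and 16093 and 15576 in B6 hearts. Brown adipocyte markers summed to 41373 and 40501 in treated hearts, against 31799 and 31441 in untreated apoE-deficient and 30988 and 30319 in B6 hearts. Their defining gene Ucp1 read 12.60 and 12.61 in treated hearts, against 3.83 and 3.99 in untreated apoE-deficient and 5.74 and 4.22 in B6 hearts. Of these markers, Cox7a1 (13.59 to 13.63 over the 6 arrays) and Cox8b (13.72 to 13.84) were brightest on every array and differed little between groups. The sum thus holds a large part that did not follow Ucp1. In treated against untreated apoE-deficient hearts, 4 of 6 tested airway markers rose, 8 of 11 white adipocyte markers rose and 1 fell, and 6 of 10 brown adipocyte markers rose and 2 fell. Lymphocyte markers summed to 1647 and 1978 in treated hearts, against 326 and 399 in untreated apoE-deficient and 340 and 313 in B6 hearts. With treatment 3 of 6 rose and 1 fell. Ighm, the brightest of them in treated hearts, read 10.21 and 10.52 there, against 7.12 and 6.56 in untreated apoE-deficient hearts. Cd8a was lower, at 6.08 and 6.13 against 7.04 and 7.48, so the sum does not stand for all lymphocytes. Red blood cell markers summed to 178 and 109 in treated hearts, against 338 and 408 in untreated apoE-deficient and 833 and 833 in B6 hearts, and 2 of 3 fell with treatment. Macrophage markers summed to 8422 and 8374 in treated hearts and 8116 and 8254 in untreated apoE-deficient hearts, against 6598 and 6884 in B6 hearts, and 3 of 7 rose and 1 fell in untreated apoE-deficient against B6 hearts. The part of these other cells in the results below was not tested.

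The promoters of the members share features that the symbol rule did not use. Of the 76 genes, 67 had a promoter window in the RefSeq table of build GRCm38.p6, from 250 bases before to 50 after a transcript start, with 73 windows in all. Their median GC content was 58.7% with 21 CpG dinucleotides, against 52.7% and 7 over all 32851 windows. Both strands were searched for short motifs of factors known for genes of mitochondrial proteins. The motif CCGGAAG of GABPA (also called nuclear respiratory factor 2) was in 34.2% of the members' windows and in 8.86% of all windows. The motif of nuclear respiratory factor 1 (NRF1), GCGCA and GCGC with 1 base between them, was in 16.4% of the members' windows, against 4.60% of all. The YY1 motif AAGATGGCG was in 11.0% of the members' windows, against 1.40% of all. The ESRRA motif AAGGTCA was about as frequent in the members (5.48%) as in all windows (4.72%), and TATAAA was in 6.85%, against 13.6% of all. Shares were not adjusted for GC content, which raises the matches to GC-rich motifs. None of the motifs overlapped in the windows printed here. Shown are 3 members that fell with treatment and hold such motifs (Mrpl57, Mrps18a and Mrps21), the member that fell most and holds none (Mrpl40), and a member that rose (Mrpl12). Each runs 5′ to 3′ in the direction of its gene, with matches to the motifs of NRF1, GABPA or YY1 on either strand in capitals. The windows are chr14:57825989-57826288 (plus strand) for Mrpl57, chr17:46110754-46111053 (plus) for Mrps18a, chr3:95871465-95871764 (minus) for Mrps21, chr16:18876588-18876887 (minus) for Mrpl40 and chr11:120484387-120484686 (plus) for Mrpl12.
Mrpl57: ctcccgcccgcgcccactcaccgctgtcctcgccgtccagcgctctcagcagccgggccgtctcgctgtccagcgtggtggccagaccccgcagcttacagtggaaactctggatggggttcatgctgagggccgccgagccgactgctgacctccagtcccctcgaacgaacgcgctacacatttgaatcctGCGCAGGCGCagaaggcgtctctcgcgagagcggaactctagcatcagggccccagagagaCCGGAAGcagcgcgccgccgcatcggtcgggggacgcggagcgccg
Mrps18a: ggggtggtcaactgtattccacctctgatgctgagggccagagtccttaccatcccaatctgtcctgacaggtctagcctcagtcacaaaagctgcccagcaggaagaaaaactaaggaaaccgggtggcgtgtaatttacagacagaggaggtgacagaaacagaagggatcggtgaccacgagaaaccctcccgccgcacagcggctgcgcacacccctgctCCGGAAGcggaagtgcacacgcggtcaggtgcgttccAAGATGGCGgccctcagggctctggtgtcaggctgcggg
Mrps21: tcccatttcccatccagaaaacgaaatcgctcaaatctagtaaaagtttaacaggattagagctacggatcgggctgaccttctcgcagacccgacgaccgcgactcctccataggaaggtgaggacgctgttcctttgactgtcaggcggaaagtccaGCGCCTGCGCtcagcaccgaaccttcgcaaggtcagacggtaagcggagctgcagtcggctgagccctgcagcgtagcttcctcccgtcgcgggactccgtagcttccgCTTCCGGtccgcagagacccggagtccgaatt
Mrpl40: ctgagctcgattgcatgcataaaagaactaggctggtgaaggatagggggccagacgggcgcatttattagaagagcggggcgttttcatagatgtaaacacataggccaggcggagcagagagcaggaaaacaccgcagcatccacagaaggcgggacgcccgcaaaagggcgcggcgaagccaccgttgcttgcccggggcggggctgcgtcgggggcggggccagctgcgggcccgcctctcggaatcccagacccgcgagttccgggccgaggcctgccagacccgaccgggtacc
Mrpl12: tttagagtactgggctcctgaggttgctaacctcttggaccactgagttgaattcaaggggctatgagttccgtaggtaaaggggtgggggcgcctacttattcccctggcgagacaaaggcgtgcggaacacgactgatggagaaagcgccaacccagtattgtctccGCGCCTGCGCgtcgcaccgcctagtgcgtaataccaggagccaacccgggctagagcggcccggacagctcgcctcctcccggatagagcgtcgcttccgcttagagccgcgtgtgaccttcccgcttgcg

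After quantile normalization, mitochondrial ribosomal protein genes were lower in treated than in untreated apoE-deficient hearts, by small folds. Of the 76 members, 33 fell, 2 rose and 41 did not pass. The 33 that fell were lower by 1.15-fold to 1.57-fold. Over all 13236 genes tested, 12.3% fell and 11.4% rose. Among the 1606 genes whose mean level lay within the interquartile range of the members (9.55 to 10.83), 27.5% fell and 18.6% rose, against 43.4% and 2.63% of the members. The median difference was -0.15 for the members, -0.07 for genes of that level range and -0.03 for all genes. A negative difference was seen in 62 of 76 members (81.6%), against 59.5% of genes of that level range and 53.8% of all genes. The members' summed normalized signal was 108853 and 109960 in treated hearts, against 121503 and 121472 in untreated apoE-deficient hearts, a treated mean of 90.1% of the untreated one. By comparison, 12 of 47 tested cytosolic ribosomal proteins fell and 10 rose (median -0.06), and 27 of 78 respiratory chain and ATP synthase subunits fell and 16 rose (median -0.05). Over the same arrays the sum of the ventricular cardiomyocyte markers stood at 94.3% of the untreated one. These markers were among the brightest probe sets (levels of 13.44 to 14.29), where quantile normalization gives each rank a fixed value. Their sum thus had little room to rise, and 94.3% is a weak yardstick for the members' 90.1%. Of these 8 markers, 4 fell (50%) and 2 rose (25%). In whole-heart RNA, fewer cells of a type and less RNA per cell cannot be told apart.

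**Figure D1:**
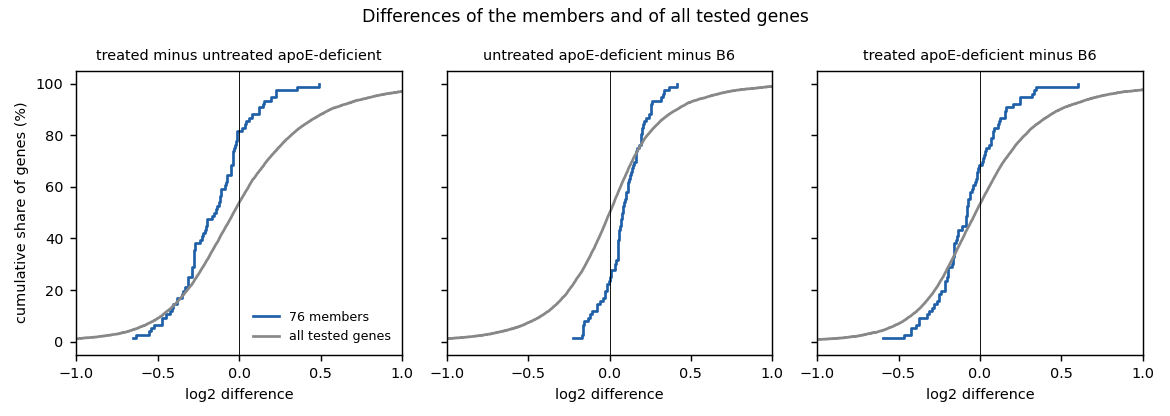
Cumulative share of genes (%, vertical) at or below a log2 difference (horizontal) for the 76 members and for all 13236 genes tested, in each comparison. In treated against untreated apoE-deficient hearts the members' curve lies left of the curve of all genes through its middle, with a median of -0.15 against -0.03, while their extremes are smaller than those of all genes.

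The direction rests on scaling between arrays, since with no scaling all 76 members rose, as 84.1% of all probe sets did. Relative to the median of all probe sets, the members' median lay lower by 0.13 with quantile normalization and 0.12 with no scaling. It lay lower by 0.21 with equal array medians, 0.22 with equal trimmed means and 0.20 with equal hybridization controls. The members' own median difference was -0.13 with equal array medians, -0.20 with equal trimmed means and -0.02 with equal hybridization controls. All probe sets had medians of 0.09, 0.02 and 0.18 in the same order. All but quantile normalization scale an array by a single factor or none, which shifts members and all probe sets nearly alike. That the sign relative to all probe sets held under them was thus nearly fixed in advance and is no separate support for the direction. Genes of the members' level range had a median difference of -0.07 with quantile normalization. The calls also rest on the intensity trend in limma's variance, without which 2 of the 33 remained (Mrpl23 and Mrpl40). With hybridization controls as the scale, 16 members fell and 8 rose, where 5.26% of all probe sets fell and 20.6% rose.

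**Figure D2:**
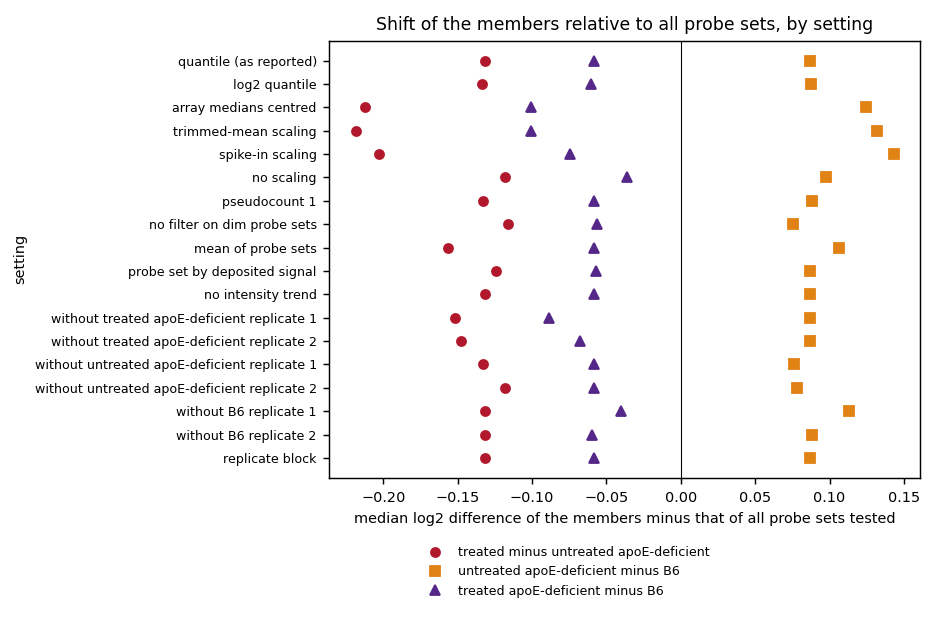
Median log2 difference of the 76 members minus the median of all probe sets tested (horizontal), for each comparison (symbols) under each processing setting (rows). Treated minus untreated apoE-deficient hearts stay below 0 in every row, between -0.22 and -0.12, and untreated apoE-deficient minus B6 hearts stay above 0. Scaling an array by a single factor shifts members and all probe sets nearly alike, so the sign in those rows is no separate support.

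The large subunit, which holds most of the members, also held most of the decreases. Of its 49 measured members 24 fell (49%) and 2 rose, with a median difference of -0.20. Of the 26 small-subunit members 8 fell (30.8%), with a median of -0.08. The 33rd, Mrps36, carries a ribosomal name but is known as a subunit of the oxoglutarate dehydrogenase complex, and it fell by 0.35. Among large-subunit proteins, 13 of the 21 that are found only in mitochondria fell (61.9%), against 11 of the 28 with a bacterial homolog (39.3%). In the small subunit the counts were 2 of 10 (20%) and 6 of 16 (37.5%). Beside these shares, 27.5% of genes of the members' level range and 12.3% of all genes fell. Differences between subunits or origins were not tested.

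**Figure D3:**
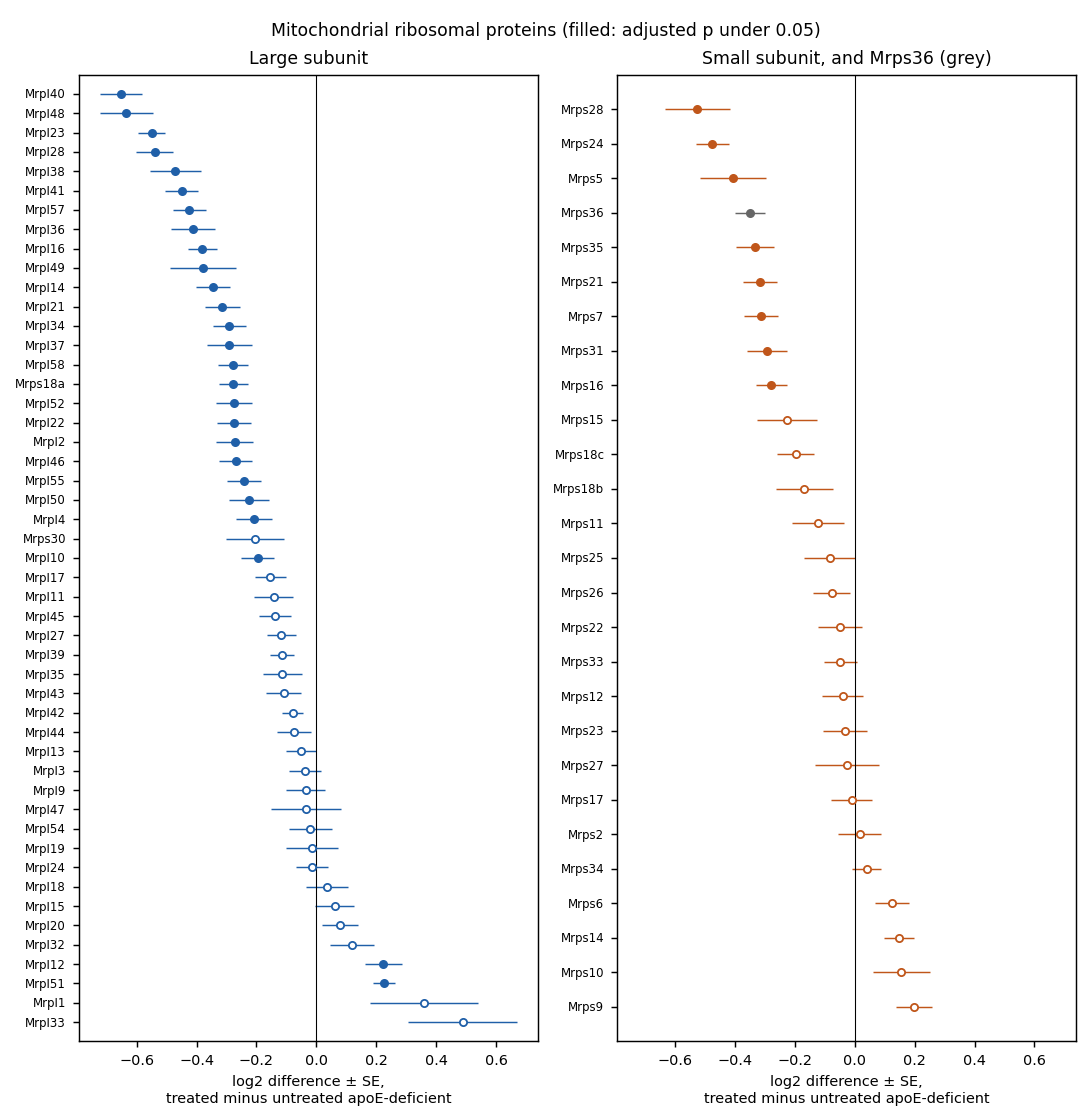
Log2 difference (horizontal) of each member between treated and untreated apoE-deficient hearts, with bars of ± 1 SE from limma (n = 2 arrays per group), for large-subunit proteins (left) and small-subunit proteins with Mrps36 (right). Filled points passed at an adjusted p under 0.05: 24 large-subunit members and 8 small-subunit members lie left of 0 and passed, as does Mrps36, and 2 filled points lie right of 0. With no scaling between arrays all points would lie right of 0.

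The members that fell most, Mrpl40 and Mrpl48, belong to the central protuberance, the crest of the large subunit that faces the small one. Mrpl40, a mitochondria-specific protein of that crest, had levels of 9.14 and 9.06 in treated hearts, against 9.77 and 9.74 in untreated apoE-deficient hearts and 9.52 and 9.47 in B6 hearts. The 3 groups did not overlap, with treated hearts lowest and untreated apoE-deficient hearts highest, and treated minus untreated was -0.65 ± 0.07 (limma adjusted p = 0.000289). Mrpl48 had 9.96 and 10.24 in treated hearts, against 10.72 and 10.74 in untreated apoE-deficient and 10.63 and 10.76 in B6 hearts. Both treated arrays were low, while the untreated apoE-deficient and B6 arrays overlapped, and the difference was -0.63 ± 0.09 (adjusted p = 0.00125). This decrease rests on the brightest probe set of Mrpl48, with a mean level of 10.51. A dimmer probe set (mean level 9.18) showed 0.02 ± 0.09 (adjusted p = 0.905). Another, at a mean level of 5.69, showed -0.39 ± 0.36 and did not pass either. Mrpl38 fell by 0.47 ± 0.08, with 9.35 and 9.24 in treated and 9.80 and 9.74 in untreated apoE-deficient hearts. Mrpl46 fell by 0.27 ± 0.06. Mrpl58, a peptidyl-tRNA hydrolase built into the ribosome that frees stalled chains, fell by 0.28 ± 0.05. These proteins of the protuberance were put together after their values were seen, so that all of them fell is no result about the protuberance. Mrpl18, the homolog of a bacterial protein that binds 5S ribosomal RNA there, did not pass (0.04 ± 0.07, adjusted p = 0.778).

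Several large-subunit proteins with bacterial homologs fell as well. Mrpl23, which lines the exit of the tunnel, had 10.93 and 11.00 in treated hearts, against 11.51 and 11.52 in untreated apoE-deficient and 11.39 and 11.39 in B6 hearts. Its treated arrays lay below all 4 others, and the difference was -0.55 ± 0.04 (adjusted p = 6.52e-05), the smallest p among the members. Of 6 proteins at the tunnel exit, a group also formed after the values were seen, only Mrpl23 and Mrpl22 (-0.27 ± 0.06) fell, a share near the 27.5% of genes of the members' level range. Mrpl16, the homolog of a bacterial protein that helps to position transfer RNA, fell by 0.38 ± 0.05, with levels of 11.11 and 11.20 in treated and 11.53 and 11.55 in untreated apoE-deficient hearts. Mrpl28 read 10.57 and 10.69 in treated and 11.11 and 11.23 in untreated apoE-deficient hearts, a difference of -0.54 ± 0.06 (adjusted p = 0.000394). For Mrpl28 the choice of probe set decides, because another one of nearly the same mean level showed 0.02 ± 0.06. Mrpl36, a small zinc-binding protein in bacteria, fell by 0.41 ± 0.07.

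The list of large-subunit members that fell goes on with Mrpl57, Mrpl41 and Mrpl14. Mrpl57 had 10.24 and 10.32 in treated hearts, against 10.70 and 10.70 in untreated apoE-deficient and 10.37 and 10.36 in B6 hearts. The untreated apoE-deficient arrays stood above the other 4, and treated minus untreated was -0.42 ± 0.05 (adjusted p = 0.000782). Mrpl41 fell by 0.45 ± 0.06, with levels of 10.80 and 10.81 in treated and 11.20 and 11.31 in untreated apoE-deficient hearts. This too rests on the choice of probe set, because another of nearly the same mean level (11.02, against 11.08) showed -0.09 ± 0.05 (adjusted p = 0.202). Mrpl14, on which the assembly factor Malsu1 sits, fell by 0.35 ± 0.06. The stalk receives translation factors, and its 3 proteins read here were also put together after their values were seen. Of these, 1 fell and 1 rose, which is no result about the stalk. Mrpl10, its base, fell by 0.20 ± 0.06 (adjusted p = 0.0368), and Mrpl11 showed -0.14 ± 0.07 (adjusted p = 0.171).

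Mrpl12, the stalk protein that is also reported to bind the mitochondrial RNA polymerase in human cells, rose. It had 11.79 and 11.91 in treated hearts, against 11.58 and 11.67 in untreated apoE-deficient and 11.58 and 11.44 in B6 hearts, with both treated arrays above the others and a difference of 0.22 ± 0.06 (adjusted p = 0.0338). Mrpl51, a mitochondria-specific protein of the large subunit, had 12.59 and 12.55 in treated hearts, against 12.35 and 12.34 in untreated apoE-deficient and 12.27 and 12.23 in B6 hearts. Its treated arrays lay above all others, by 0.22 ± 0.04 against the untreated apoE-deficient ones (adjusted p = 0.00286), but the difference was -0.057 with equal array medians and -0.13 with equal trimmed means. Mrpl33 had the highest difference of all members, 0.49 ± 0.18, and did not pass (adjusted p = 0.0973): its treated arrays read 9.87 and 9.16 and so lay far apart, against 9.04 and 9.01 in untreated apoE-deficient hearts.

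**Figure D4:**
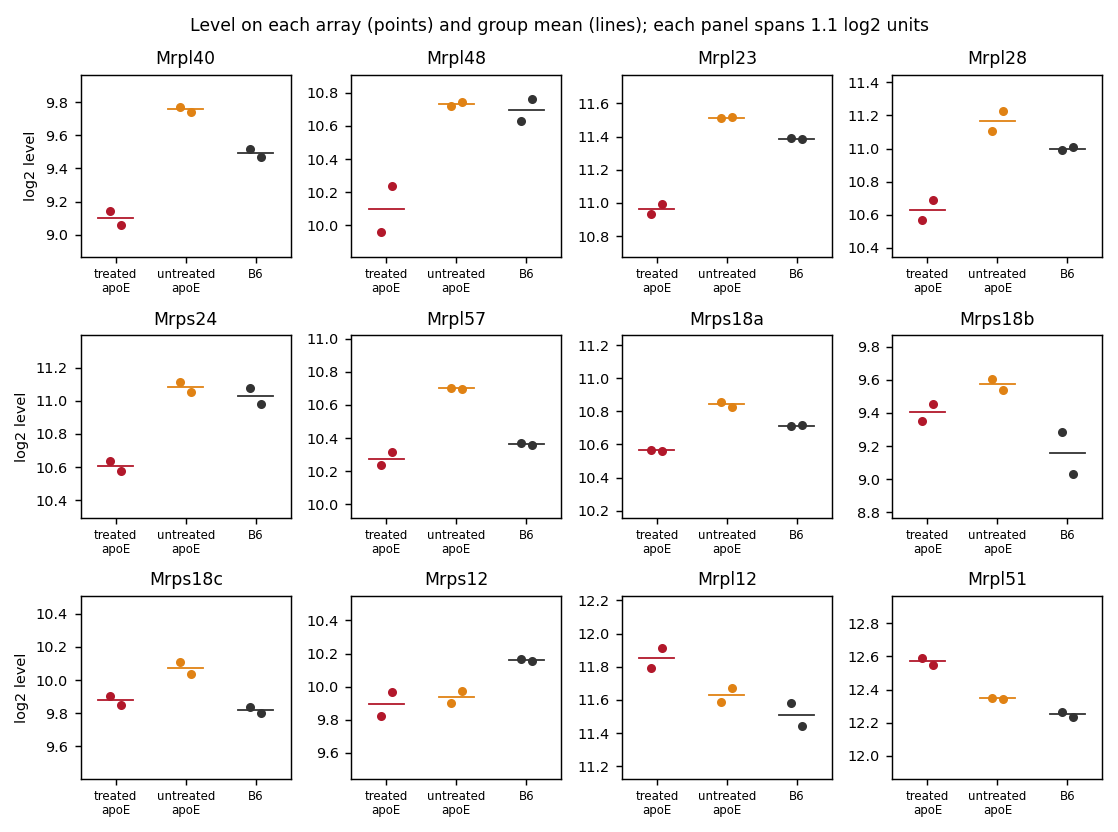
Level (log2 normalized signal, vertical) of 12 members on each array (points) with group means (lines), for treated apoE-deficient, untreated apoE-deficient and B6 hearts, each panel spanning the same range of log2 units. Mrpl40, Mrpl48, Mrpl23, Mrpl28 and Mrps24 lie lowest in treated hearts, Mrpl57 is high in untreated apoE-deficient hearts, and Mrpl12 and Mrpl51 lie highest in treated hearts.

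In the small subunit 8 of 26 members fell (30.8%), a share near the 27.5% of genes of the members' level range. Mrps24, at the entry of the messenger channel, had 10.64 and 10.58 in treated hearts, against 11.11 and 11.05 in untreated apoE-deficient and 11.08 and 10.98 in B6 hearts. Treated arrays were below all others, and the difference was -0.48 ± 0.06 (adjusted p = 0.000455), while a dimmer probe set of Mrps24 showed -0.10 ± 0.09 and did not pass. Mrps28 had 10.42 and 10.61 in treated hearts, against 11.23 and 10.86 in untreated apoE-deficient hearts, so it fell by 0.53 ± 0.11 (adjusted p = 0.0094) with untreated arrays that lay far apart. Mrps5, the homolog of a bacterial protein of the messenger entry site, fell by 0.41 ± 0.11. Its dimmer tested probe sets gave 0.16 ± 0.16, -0.66 ± 0.26, 1.29 ± 0.41 and 0.99 ± 0.42, and none of them passed. Mrps7, which binds ribosomal RNA in the head of the subunit, fell by 0.31 ± 0.06, Mrps16 by 0.28 ± 0.05 and Mrps21 by 0.32 ± 0.06. Mrps12, a protein of the decoding centre, did not pass (-0.04 ± 0.07, adjusted p = 0.743). Neither did several genes that cause cardiomyopathy in humans when mutated: Mrpl3 at -0.04 ± 0.05, Mrpl44 at -0.07 ± 0.06, Mrps22 at -0.05 ± 0.07 and Mrps14 at 0.15 ± 0.05 (adjusted p between 0.0699 and 0.689). Mrps30 (-0.21 ± 0.10), a large-subunit protein despite its symbol, did not pass either.

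The Mrps18 family descends from a single bacterial protein and splits over the ribosome, with Mrps18a in the large subunit and Mrps18b and Mrps18c in the small one. Mrps18a had 10.57 and 10.56 in treated hearts, against 10.86 and 10.83 in untreated apoE-deficient and 10.71 and 10.71 in B6 hearts, and fell by 0.28 ± 0.05 (adjusted p = 0.00398). Mrps18b had 9.35 and 9.45 in treated hearts, against 9.61 and 9.54 in untreated apoE-deficient and 9.28 and 9.03 in B6 hearts. Mrps18c had 9.90 and 9.85 in treated hearts, against 10.11 and 10.04 in untreated apoE-deficient and 9.84 and 9.80 in B6 hearts. All 3 paralogs were highest in untreated apoE-deficient hearts. Among all 76 members, 62 were lower in treated than in untreated apoE-deficient hearts and 58 were higher in untreated apoE-deficient than in B6 hearts. The order is thus no trait of this family alone. With treatment Mrps18b (-0.17 ± 0.09, adjusted p = 0.26) and Mrps18c (-0.20 ± 0.06, adjusted p = 0.0562) did not pass.

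Between untreated apoE-deficient and B6 hearts the members' differences were mostly small and positive, and few passed. Of the 76 members, 5 rose, 6.58% of them, where 3.85% of all genes rose and 4.66% fell, and in the members' level range 8.47% of genes rose and 10.9% fell. No member fell in limma (0 at the adjusted threshold, 3 at an unadjusted p under 0.05), and 25 were higher at that unadjusted threshold. The share of all genes at the unadjusted threshold was not counted, so the unadjusted counts are no result about the members. The median difference was 0.08 for the members and 0.000603 for all genes. Of the members' differences 58 of 76 were positive, against 6629 of all 13236 genes and 803 of 1606 in the members' level range. The summed signal was 121503 and 121472 in untreated apoE-deficient hearts, against 115582 and 114307 in B6 hearts. Mrps18b rose by 0.42 ± 0.09 (adjusted p = 0.0335), Mrpl57 by 0.34 ± 0.05 (adjusted p = 0.00869) and Mrps18c by 0.25 ± 0.06 (adjusted p = 0.0432). Mrpl55, a mitochondria-specific large-subunit protein, rose by 0.25 ± 0.06, with 11.17 and 11.28 in untreated apoE-deficient hearts, against 11.00 and 10.94 in B6 hearts. Mrpl20, with a bacterial homolog that starts the assembly of the large subunit, rose by 0.25 ± 0.06, with levels of 9.89 and 9.96 in untreated apoE-deficient hearts, against 9.68 and 9.66 in B6 hearts. Mrpl40 (0.26 ± 0.07, adjusted p = 0.0597) and Mrps18a (0.13 ± 0.05, adjusted p = 0.154) did not pass, and Mrpl12 differed by 0.12 ± 0.06 (adjusted p = 0.302). None of the 5 calls held with every array left out in turn: without untreated apoE-deficient replicate 1 or B6 replicate 2, 0 members rose, and likewise without the intensity trend. With no scaling the median difference was -0.22, against -0.32 for all probe sets.

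**Figure D5:**
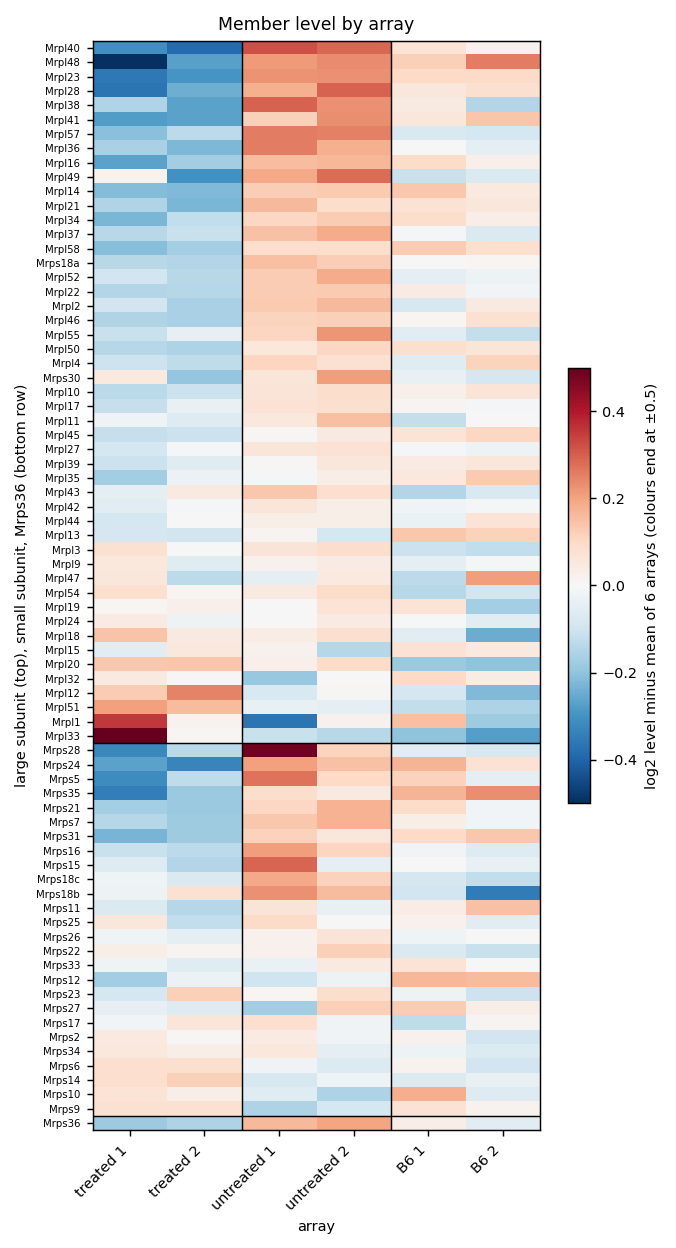
Level of each member (rows) on each of the 6 arrays (columns) as the log2 level minus that member's mean over the arrays, with colours ending at ± 0.5, ordered by the difference between treated and untreated apoE-deficient hearts within the large subunit, the small subunit and Mrps36. Rows at the top of each block, such as Mrpl40 and Mrps24, are blue on both treated arrays and red on both untreated apoE-deficient arrays, with B6 between or near the untreated arrays, and Mrpl12 and Mrpl51 run the other way. The scale is relative to quantile normalization, and with no scaling every member would be higher in treated than in untreated apoE-deficient hearts.

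Treated hearts were also compared with B6 hearts, a comparison that shares its arrays with the 2 above. Of the 76 members, 18 fell (23.7%) and 4 rose (5.26%), where 9.87% of all genes fell and 8.78% rose, and where 24.6% of genes in the members' level range fell and 15.4% rose. The share that fell was thus near that of genes of the same level. The median difference was -0.08 for the members and -0.03 for all genes. Mrpl48 fell by 0.60 ± 0.09 (adjusted p = 0.00217) and Mrpl23 by 0.42 ± 0.04 (adjusted p = 0.000348). Mrps35, a mitochondria-specific small-subunit protein, had 10.45 and 10.61 in treated hearts, against 10.97 and 11.03 in B6 hearts, and fell by 0.47 ± 0.06 (adjusted p = 0.00126). Mrps24 fell by 0.42 ± 0.06, Mrpl40 by 0.39 ± 0.07, Mrpl28 by 0.37 ± 0.06 and Mrpl41 by 0.37 ± 0.06. The other probe sets of nearly the same level gave 0.13 ± 0.06 for Mrpl28 and -0.06 ± 0.05 for Mrpl41, and neither passed. Dimmer probe sets gave 0.24 ± 0.09 for Mrps24, and 0.10 ± 0.09 and -0.28 ± 0.36 for Mrpl48, and none of them passed. Mrps31, Mrpl14, Mrpl58, Mrpl16 and Mrps12 fell by 0.26 to 0.32. Mrps12 had 9.83 and 9.97 in treated and 9.90 and 9.97 in untreated apoE-deficient hearts, against 10.17 and 10.16 in B6 hearts, so both apoE-deficient groups lay below B6. Mrpl57, by contrast, was at -0.09 ± 0.05 (adjusted p = 0.361). Mrps18a (-0.15 ± 0.05, adjusted p = 0.0765), Mrps18b (0.25 ± 0.09, adjusted p = 0.124) and Mrps18c (0.06 ± 0.06, adjusted p = 0.632) did not pass either.

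The members that rose against B6 were Mrpl12 (0.34 ± 0.06, adjusted p = 0.00607), Mrpl20 (0.33 ± 0.06, adjusted p = 0.0065), Mrpl51 (0.32 ± 0.04, adjusted p = 0.000544) and Mrpl18 (0.25 ± 0.07, adjusted p = 0.0477). Mrpl20 was at 10.00 on both treated arrays, and Mrpl18 read 10.76 and 10.66 in treated hearts, against 10.56 and 10.37 in B6 hearts. With hybridization controls as the scale, 33 members rose and 1 fell, with no scaling 72 rose and 0 fell, and without the intensity trend 0 passed in either direction. Of all probe sets, 26.0% rose and 2.12% fell with the control scale, and 69.1% rose and 0.20% fell with no scaling. Without the trend 1.63% rose and 0.69% fell. Leaving out B6 replicate 1, B6 replicate 2 or treated replicate 1 left 11 members that fell.

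The ribosomal proteins that the symbols miss did not all move one way in treated against untreated apoE-deficient hearts. Of 4 such genes, Dap3, a GTP-binding protein of the small subunit, fell by 0.40 ± 0.05 and Gadd45gip1, of the large subunit, by 0.21 ± 0.06. Chchd1, a small-subunit protein, rose by 0.21 ± 0.05, and Ptcd3 did not pass (-0.12 ± 0.05).

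Genes that work with the mitochondrial ribosome were read from lists chosen with earlier results of these data known, and their counts are for treated against untreated apoE-deficient hearts. Over all genes 12.3% fell and 11.4% rose, and in the members' level range 27.5% of genes fell and 18.6% rose. The lists were not matched to genes of their own level. Of 16 mitochondrial aminoacyl-tRNA synthetases, which load amino acids onto transfer RNA, 7 fell (43.8%), with a median of -0.34. Among them were Sars2 (by 1.11 ± 0.14), Aars2 (by 0.73 ± 0.16), Cars2 (by 0.51 ± 0.08) and Tars2 (by 0.44 ± 0.08). Of 24 assembly factors 4 fell (16.7%), near the share of all genes: the GTPase Mtg2 by 0.74 ± 0.09, the ribosomal RNA methyltransferase Mrm3 by 0.31 ± 0.08, Malsu1 by 0.29 ± 0.08 and the helicase Dhx30 by 0.27 ± 0.06. Of 12 translation factors 3 fell (25%) and 2 rose (16.7%). Mrrf, which with Gfm2 splits the ribosome after termination, fell by 0.98 ± 0.20, with group means of 8.79 ± 0.51 in treated and 9.77 ± 0.19 in untreated apoE-deficient hearts (SD, n = 2 each). Gfm2 fell by 0.48 ± 0.09 and the elongation factor Gfm1 by 0.33 ± 0.06, while the initiation factor Mtif2 rose by 0.20 ± 0.06 and the rescue factor Mtres1 by 0.23 ± 0.05. The elongation factor Tufm did not pass (-0.03 ± 0.09). Of 15 matrix proteases and chaperones 7 fell (46.7%), among them Spg7 by 0.73 ± 0.07, Hspe1 by 0.54 ± 0.04, Trap1 by 0.46 ± 0.05 and Clpp by 0.45 ± 0.06.

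Genes of mitochondrial DNA and its transcription went both ways. Of 20 such genes 3 rose (15%) and 1 fell (5%), against the 11.4% and 12.3% of all genes. Grsf1, an RNA-binding protein of mitochondrial RNA granules, rose by 0.59 ± 0.05, the transcription elongation factor Tefm by 0.38 ± 0.11 and Tfam, which packs mitochondrial DNA, by 0.27 ± 0.08, while the DNA polymerase Polg fell by 0.53 ± 0.08. The RNA polymerase Polrmt did not pass (0.13 ± 0.07). Of 13 regulators of mitochondrial biogenesis, Esrra rose by 0.37 ± 0.10 and the coactivator Ppargc1a fell by 0.58 ± 0.07. Ppargc1a had levels of 9.72 and 9.66 in treated hearts, against 10.26 and 10.29 in untreated apoE-deficient and 10.31 and 10.14 in B6 hearts. Of the factors whose motifs were counted in the promoters, Esrra was thus the only one to pass, while Nrf1 (0.23 ± 0.20), Gabpa (0.15 ± 0.08) and Yy1 (0.09 ± 0.08) did not. Of the 29 fallen members with a promoter window 14 held a motif of NRF1, GABPA or YY1, and of the 38 other members 25 did, a difference that was not tested.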

How the data were processed

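Biotin-labelled cRNA of mouse heart RNA was read on Affymetrix arrays, per the labels' protocols. The table deposited by the authors gives a linear intensity for every probe set on every array. GCOS is named in the submitters' processing notes; neither its version nor any background step or scaling is given. Of 45101 probe sets, 64 controls were left out. The linear signals of the other 45037 were quantile-normalized here, because the deposited intensities were not scaled between arrays, then a pseudocount of 11.1 (their 25th percentile) was added and log2 taken. Tests covered the 27022 probe sets, of 13236 genes, whose mean log2 value exceeded the 40th percentile (4.99). The array's annotation gave 1 symbol to 34945 probe sets, several to 932 and none to 9160, and 34741 symbols were updated through gene numbers with a table of assembly GRCm38.p6. Probe sets with several symbols or none were not named.

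All 6 arrays entered 1 fit of 3 groups in limma 3.58.1 (R 4.3.3), using lmFit, then eBayes with an intensity trend. It had 3 residual and 5.97 prior degrees of freedom, and p-values were Benjamini-Hochberg adjusted over all probe sets tested. The script was tested on simulated data. An exact permutation test of 2 arrays against 2 cannot give a two-sided p under 0.333. The number of arrays limits the precision. The members and gene lists were chosen with earlier results of these data known. Named members follow a rule: for each comparison, up to 12 of the highest and of the lowest differences that passed, the Mrps18 paralogs and a panel with known roles, and up to 4 genes of each other list with the smallest p. Named after their values were seen were Mrpl33, Mrpl50, Yy1 and, for treated against untreated apoE-deficient hearts, Mrpl14, Mrpl22, Mrpl46, Mrpl58 and Mrps21. Alternatives covered scaling, pseudocount, filter, choice of probe set, variance model, each array left out and a replicate block. Correlations between the arrays of a group over the tested probe sets were 0.987 in treated, 0.968 in untreated apoE-deficient and 0.977 in B6 hearts. Promoter sequences are RefSeq's, build GRCm38.p6.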

Additional observations from a re-analysis of the deposited data

How the results depend on the processing

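Differences are relative to quantile normalization. The median of all probe sets moved to 0.18 with hybridization controls as the scale and to 1.13 with no scaling in treated against untreated apoE-deficient hearts, to 0.11 and -0.32 in untreated apoE-deficient against B6 hearts, and to 0.28 and 0.81 in treated against B6 hearts. In the same order, 20.6%, 9.10% and 26.0% of all probe sets rose with the control scale, and 5.26%, 2.15% and 2.12% fell. With no scaling 84.1%, 0.27% and 69.1% rose, and 0.09%, 5.54% and 0.20% fell. In treated against untreated apoE-deficient hearts, 16 members fell and 8 rose with the control scale, 0 fell and 76 rose with no scaling, 0 rose with equal trimmed means, 1 rose without the filter on dim probe sets, and 2 fell and 0 rose without the intensity trend. Leaving out each array gave 25 to 30 that fell and 1 to 2 that rose, and 22 of the 33 decreases and the increase of Mrpl51 passed each time. In untreated apoE-deficient against B6 hearts, 1 member rose and 1 fell with equal array medians, 10 rose with equal trimmed means, 37 with the control scale, 0 with no scaling, 1 without the filter, 0 without the trend and 0 to 3 with an array left out. In treated against B6 hearts, 33 rose and 1 fell with the control scale, 72 rose and 0 fell with no scaling, 2 rose with equal array medians, 10 fell with the mean of a gene's probe sets, 0 passed without the trend, and leaving out arrays gave 2 to 5 that rose and 11 to 16 that fell. Replicate numbers did not pair the arrays (correlations of same-numbered deviations of -0.006, 0.033 and 0.020), and with the replicate block 32 members fell and 2 rose, 7 rose and 0 fell, and 5 rose and 19 fell in the 3 comparisons.

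Signs turned as follows. With no scaling the members' median was 1.02 in the first of these comparisons, -0.22 in the second and 0.78 in the third, and with the control scale it was 0.21 in the third. With no scaling, treated minus untreated apoE-deficient was 0.58 for Mrpl40, 0.52 for Mrpl48, 0.56 for Mrpl23, 0.60 for Mrpl28, 0.62 for Mrps28, 0.66 for Mrps24, 0.75 for Mrpl38, 0.68 for Mrpl41, 0.73 for Mrpl57, 0.84 for Mrpl36, 0.87 for Mrps5, 0.71 for Mrpl16, 0.99 for Mrpl10, 1.04 for Mrpl11, 0.88 for Mrps7, 0.84 for Mrps16, 0.76 for Mrps36, 0.87 for Mrps18a, 1.07 for Mrps18b, 1.0003 for Mrps18c, 1.13 for Mrpl3, 1.06 for Mrpl44, 1.16 for Mrps12, 1.20 for Mrps22, 1.04 for Mrps30, 0.92 for Mrpl46, 0.87 for Mrpl58, 1.03 for Mrpl50, 0.82 for Mrps21, 0.83 for Mrpl14, 0.92 for Mrpl22, 0.73 for Dap3, 0.96 for Gadd45gip1, 1.03 for Ptcd3, 0.81 for Gfm1, 0.79 for Gfm2, 0.25 for Mrrf, 0.16 for Sars2, 0.55 for Aars2, 0.77 for Cars2, 0.80 for Tars2, 0.52 for Mtg2, 0.96 for Dhx30, 0.92 for Malsu1, 0.96 for Mrm3, 0.73 for Polg, 0.62 for Ppargc1a, 0.47 for Hspe1, 0.49 for Spg7, 0.70 for Trap1, 0.69 for Clpp and 1.12 for Tufm. Untreated apoE-deficient minus B6 was -0.0633 for Mrps18c, -0.0383 for Mrpl55 and -0.0699 for Mrpl20, and treated minus B6 was 0.28 for Mrpl48, 0.38 for Mrps35, 0.40 for Mrpl23, 0.42 for Mrps24, 0.51 for Mrpl40, 0.47 for Mrpl28, 0.46 for Mrpl41, 0.57 for Mrps31, 0.56 for Mrpl14, 0.56 for Mrpl58, 0.54 for Mrpl16, 0.61 for Mrps12, 0.78 for Mrpl57 and 0.71 for Mrps18a. With the control scale, treated minus B6 was 0.00644 for Mrps31, 0.043 for Mrps12 and 0.21 for Mrpl57. With the mean of a gene's probe sets, treated minus untreated apoE-deficient was 0.0294 for Mrpl38, 0.27 for Mrps5, -0.0158 for Mrpl51, 0.20 for Mrpl50, 0.0516 for Gadd45gip1, 0.0764 for Cars2 and -0.000913 for Tfam, and treated minus B6 was 0.0915 for Mrps31. With the probe set chosen by deposited signal, Mrpl28 was 0.022 (treated minus untreated apoE-deficient) and 0.13 (treated minus B6). Mrpl51, treated minus untreated apoE-deficient, was -0.057 with equal array medians and -0.13 with equal trimmed means. The cause of these changes was not tested.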

Other observations

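Of the 76 members, 34 have 1 probe set, and the others can be read more than once. Among the 33 members that fell in treated against untreated apoE-deficient hearts, 14 had another probe set that was tested, 22 probe sets in all. Of these 22, 2 fell, 1 rose and 19 did not pass, and 13 had a negative difference. The probe set that rose belongs to Mrpl50: it gave 0.62 ± 0.16 (limma adjusted p = 0.0243) with a mean level of 7.81, while the brighter one that stands for the gene gave -0.22 ± 0.07 (adjusted p = 0.0481) with a mean level of 9.39. Mrpl51, which rose, had further probe sets at -0.29 ± 0.10 and 0.02 ± 0.23, neither of which passed.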
